A study of Mus musculus with 3 samples.

Results

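A set of 10 immediate early genes was followed across 3 whole-lung libraries of mice, 1 wild type (WT) and 2 with Lin28a and Lin28b deleted (double knockout, DKO 1 and DKO 2). The members are a list of named genes, chosen with earlier results of these data known. Their rows were found by matching RefSeq transcript identifiers to gene symbols. All 10 had a row, 11 rows in all among the 16383 of the table. Jund was listed at 0 in every library, which left 9 genes with values above 0. Of these, 6 (Ier2, Jun, Dusp1, Junb, Fos and Btg2) averaged at least 1 RPKM over the libraries and entered the test across 2066 transcripts. RPKM are reads scaled to transcript length and to library depth.

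The mice were of a mixed C57BL/6J background. The knockout removed a loxP-flanked exon 2 in each gene with a tamoxifen-induced recombinase, NKX2.1creERT, which is driven from a gene of the lung epithelium. RNA of every cell type of the lung was measured, while the driver limits recombination to cells that use it. The labels give no age, no sex and no statement that the DKO libraries came from separate animals, nor whether the WT mouse received tamoxifen. The spread between the DKO libraries may therefore be partly technical. In bulk tissue, fewer cells of a type and less RNA per cell cannot be told apart.

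Immediate early genes are transcribed within minutes of a signal, such as a growth factor, stretch or other stress, without the need for new protein. Mitogen-activated protein (MAP) kinases reach them through transcription factors already present, chiefly the serum response factor with its ternary complex partners and CREB, and their messengers are short-lived. Fos and Jun proteins pair through leucine zippers to form AP-1. Egr1 is a zinc finger factor, and Dusp1 and Btg2 act as brakes on MAP kinases and on cell division.

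Depth was estimated from the worth of 1 read in low values and came to about 48700000 reads in WT, 30700000 in DKO 1 and 34200000 in DKO 2. Of all rows, 68.0% were listed at 0 in every library, so a 0 can be a failed estimate rather than silence. Gapdh, a gene that nearly all cells use, had 0.0144 to 0.185 RPKM in its higher row. Lin28b stood at 0.449 RPKM (WT), 0.187 (DKO 1) and 0.590 (DKO 2), so its level was not lower in the library labelled DKO 2. That level covers the whole transcript and all cells, and it checks the labels weakly. No row was matched to Lin28a, so its level could not be checked. The Y-linked gene Ddx3y was at 5.49 and 2.64 RPKM in DKO 1 and DKO 2 and listed at 0 in WT, so sex and genotype cannot be told apart. Of the epithelial markers, Sftpc stood at 369, 7.55 and 0.0364 RPKM (WT, DKO 1, DKO 2) and Epcam at 17.4, 6.75 and 10.6. Krt18 stood at 12.2, 4.10 and 14.7 and Krt19 at 3.08, 6.17 and 9.11. Sox9 had 3.84, 2.34 and 1.47 RPKM and Sox2 had 2.08, 0.995 and 0.464, and Nkx2-1 was listed at 0 throughout. Of the 6 tested markers, 4 were below WT in both DKO libraries (31.0% of tested transcripts) and 1 was above it in both (32.1%).

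The 250 bases before the start site are shown for 5 members, all of them lowest in DKO 2, as was Fosb, which is not shown. Fos, Btg2 and Dusp1 were chosen since they were at least 2-fold below WT in DKO 2. Junb was at least 2-fold above WT in DKO 1, and Jun was nearly level. The sequences are RefSeq's, on GRCm38.p6, written 5′ to 3′ on the strand of the gene. Capitals mark matches to the cyclic AMP response element (CRE) TGACGTCA, its half-site TGACG, the AP-1 site TGANTCA, the TATA box TATAAA and the CArG box of serum response factor, on either strand.
Fos, chr12:85473640-85473889, plus strand: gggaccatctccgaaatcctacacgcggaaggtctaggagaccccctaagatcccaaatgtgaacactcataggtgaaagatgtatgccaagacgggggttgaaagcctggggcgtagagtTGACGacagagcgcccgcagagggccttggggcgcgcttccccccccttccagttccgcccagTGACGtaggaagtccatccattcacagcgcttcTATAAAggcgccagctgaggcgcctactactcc
Btg2, chr1:134079156-134079405, minus strand: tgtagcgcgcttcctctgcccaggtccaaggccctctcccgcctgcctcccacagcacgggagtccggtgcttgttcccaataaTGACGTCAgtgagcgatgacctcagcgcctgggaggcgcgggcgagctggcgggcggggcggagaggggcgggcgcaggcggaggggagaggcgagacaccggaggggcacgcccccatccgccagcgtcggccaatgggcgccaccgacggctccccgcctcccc
Dusp1, chr17:26508473-26508722, minus strand: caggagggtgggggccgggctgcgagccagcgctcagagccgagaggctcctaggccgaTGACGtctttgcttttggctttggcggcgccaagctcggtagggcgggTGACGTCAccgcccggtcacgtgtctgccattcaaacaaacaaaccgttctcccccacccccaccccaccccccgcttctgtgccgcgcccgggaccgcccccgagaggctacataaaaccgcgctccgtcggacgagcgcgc
Junb, chr8:84978749-84978998, minus strand: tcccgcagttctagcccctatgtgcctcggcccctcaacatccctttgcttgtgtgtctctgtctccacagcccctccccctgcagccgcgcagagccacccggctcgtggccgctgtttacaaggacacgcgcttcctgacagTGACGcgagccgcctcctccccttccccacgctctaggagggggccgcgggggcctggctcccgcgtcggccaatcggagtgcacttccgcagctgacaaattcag
Jun, chr4:95052223-95052472, minus strand: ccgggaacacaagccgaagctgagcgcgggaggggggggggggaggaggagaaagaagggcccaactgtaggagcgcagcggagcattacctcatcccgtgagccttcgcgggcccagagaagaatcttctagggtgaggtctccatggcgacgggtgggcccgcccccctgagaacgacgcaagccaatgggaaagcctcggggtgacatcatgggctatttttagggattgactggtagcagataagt

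Promoter windows were matched for 8 of the 10 members, not for Egr1 and Ier2. The full CRE stood in the windows of Btg2 and Dusp1, 166 to 159 and 143 to 136 bases before the start. Of 32851 promoter windows of this length, 1.55% held it. The half-site, which is contained in the full CRE, was present in 6 of 8 member windows, against 17.8% of all windows, which were not matched for base content. One of the 6 is the Fosb window, from base 19310046 to 19310295, which overlaps the gene, since that reaches base 19310118. Fos held it in 2 places, starting 129 and 66 bases before the start, with a TATA box at 33 to 28. Jun and Jund held no exact match to any of the 5 motifs. The Jun window does hold tgacatca, a near match to the CRE that the exact patterns leave out. The Jund window ends at base 70697738, and whether the matched transcript starts next to it was not checked. No member window held a CArG box (1.47% of all windows) or an AP-1 site (6.75%), which says only that these letters are absent from these windows. A match describes letters and is not evidence of a bound factor.

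Fos itself had the widest spread between the DKO libraries of the members above 0. This gene, a leucine zipper protein that needs a Jun partner to bind DNA (NM_010234, chromosome 12, 85473890 to 85477274, 4 exons), reached 1.54 RPKM for WT, 3.02 for DKO 1 and 0.0977 for DKO 2. These levels stand for about 158, 195 and 7 reads. DKO 1 was thus the highest library and DKO 2 by far the lowest, with WT between them. DKO 1 was 1.96-fold above WT (95% exact binomial interval 1.58 to 2.43), and WT was 15.8-fold above DKO 2 (7.52 to 40.1). Between the DKO libraries the ratio was 30.9 (14.8 to 78.3). All such intervals set 1 library against 1 and allow for counting error alone. PCR copies of a molecule are not independent reads, so the intervals may be too narrow even for that. On the log2(RPKM + 1) scale, which understates changes of low genes, Fos differed from WT by 0.66 in DKO 1 and −1.21 in DKO 2. The mean difference was −0.27 (SE 0.90, limma adjusted p = 0.999).

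Fosb, the close relative of Fos, was near the limit of detection (NM_008036, chromosome 7). WT gave 0.0761 RPKM (about 14 reads), DKO 1 gave 0.0432 (5 reads) and DKO 2 gave 0.00774 (1 read). RefSeq lists 2 transcripts of Fosb, and 1 of them is in this table, so its level is uncertain. WT was 9.84-fold above DKO 2, with an interval from 1.50 to 416. The ratio of DKO 2 to DKO 1 was 0.179 with an interval from 0.00379 to 1.60, so a difference between the DKO libraries was not detectable at this depth.

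**Figure D1:**
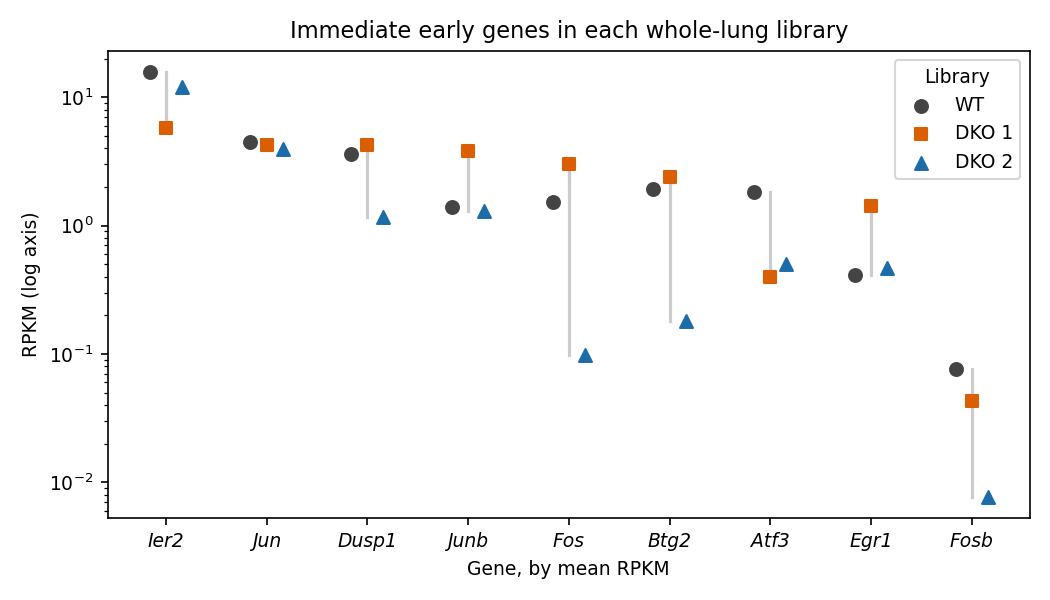
RPKM of the 9 members with values above 0 in each library (log axis), ordered by mean, with 1 point per library and a grey line over the range of the 3. Fos and Btg2 drop in DKO 2 to 0.0977 and 0.180 RPKM, Jun stays between 3.94 and 4.44, and Atf3 is lower in both DKO libraries than in WT.

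The 3 Jun genes differed in pattern. Jun, the main partner of Fos in AP-1 (NM_010591, chromosome 4, 95049036 to 95052222, 1 exon), was nearly level: 4.44 RPKM for WT, 4.23 for DKO 1 and 3.94 for DKO 2. The intervals of all 3 of its ratios included 1, and that of DKO 2 to WT ran from 0.784 to 1.001. Its mean log2 difference was −0.098 (SE 0.64, limma adjusted p = 0.999). Junos, an antisense gene, overlaps Jun on the other strand, and whether reads were assigned by strand is not given in the sources used here, so reads of both cannot be told apart.

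Junb, which forms weaker AP-1 than Jun and often restrains it (NM_008416, chromosome 8, 84976909 to 84978748, 1 exon), stood at 1.40 RPKM for WT, 3.83 for DKO 1 and 1.30 for DKO 2. DKO 1 stood above both other libraries, which did not differ beyond counting error. DKO 1 was 2.74-fold above WT (interval 2.18 to 3.44), and the ratio of DKO 2 to WT was 0.934 (0.699 to 1.25). The mean log2 difference was 0.48 (SE 0.74, limma adjusted p = 0.999).

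Jund, the member of the family that many resting cells keep on, was listed at 0 in all libraries in both of its rows (NM_010592 and NM_001286944). Both rows were matched to a GENCODE transcript of 1 exon and 1668 bases, shorter than the RefSeq gene (70697739 to 70700616). A second gene, Gm11175, overlaps on the other strand. Rows of genes with 2 RefSeq transcripts were listed at 0 in 69.4% of cases, against 47.7% for genes with 1, so no level can be read for Jund.

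Atf3, a stress-induced zipper protein of the ATF and CREB family that often represses its targets (NM_007498, chromosome 1, 191170296 to 191183333, 4 exons), was lower in both DKO libraries. WT gave 1.82 RPKM (about 176 reads), DKO 1 gave 0.396 (24 reads) and DKO 2 gave 0.503 (34 reads). Among the members it combined the largest shared distance from WT with DKO libraries close to each other. WT was 4.59-fold above DKO 1 (interval 3.01 to 7.40) and 3.62-fold above DKO 2 (2.51 to 5.42), and the ratio of DKO 2 to DKO 1 was 1.27 (0.732 to 2.24). Its mean of 0.906 RPKM lay just under the filter. Fitted without a filter, it differed from WT by −0.96 on the log2 scale (SE 0.41, limma adjusted p = 0.922) and did not pass.

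Egr1, the zinc finger factor (NM_007913, chromosome 18, 34861207 to 34864956, 3 exons), was highest in DKO 1, as Junb was. WT gave 0.415 RPKM (about 61 reads), DKO 1 gave 1.43 (133 reads) and DKO 2 gave 0.466 (48 reads). DKO 1 was 3.46-fold above WT (interval 2.54 to 4.77), while DKO 2 and WT did not differ beyond counting error (ratio 1.12, 0.751 to 1.66). Its mean of 0.771 RPKM was below the filter, and without a filter its log2 difference was 0.42 (SE 0.57, limma adjusted p = 0.922).

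Ier2, a short single-exon gene for a nuclear regulator (NM_010499, chromosome 8, 84661331 to 84662852), was the most abundant member in every library. WT gave 15.7 RPKM (1165 reads), DKO 1 gave 5.78 (270 reads) and DKO 2 gave 12.0 (627 reads). Its order differed from that of Fos, since DKO 1 and not DKO 2 was the lowest. WT was 2.72-fold above DKO 1 (interval 2.38 to 3.11) and 1.31-fold above DKO 2 (1.18 to 1.44). The mean log2 difference was −0.83 (SE 0.72, limma adjusted p = 0.999).

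The feedback genes were lowest in DKO 2, as Fos was. Btg2, an antiproliferative cofactor that promotes shortening of messenger tails (NM_007570, chromosome 1, 134074865 to 134079155, 2 exons), stood at 1.93 RPKM for WT (about 258 reads), 2.41 for DKO 1 (203 reads) and 0.180 for DKO 2 (17 reads). WT and DKO 1 lay close together, with a ratio of DKO 1 to WT of 1.25 (interval 1.03 to 1.51), and DKO 2 stood apart. WT was 10.7-fold above DKO 2 (6.53 to 18.6) and DKO 1 was 13.4-fold above it (8.11 to 23.3). The mean log2 difference was −0.55 (SE 0.86, limma adjusted p = 0.999).

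Dusp1, the phosphatase that switches off p38 and JNK kinases and is itself an immediate early gene (NM_013642, chromosome 17, 26505591 to 26508472, 4 exons), stood at 3.62 RPKM for WT, 4.23 for DKO 1 and 1.16 for DKO 2 (about 350, 258 and 79 reads). WT and DKO 1 did not differ beyond counting error (ratio 1.17, interval 0.992 to 1.38), and both were above DKO 2. WT was 3.12-fold above DKO 2 (2.43 to 4.03), and DKO 1 was 3.65-fold above it (2.82 to 4.75). The mean log2 difference was −0.46 (SE 0.73, limma adjusted p = 0.999).

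**Figure D2:**
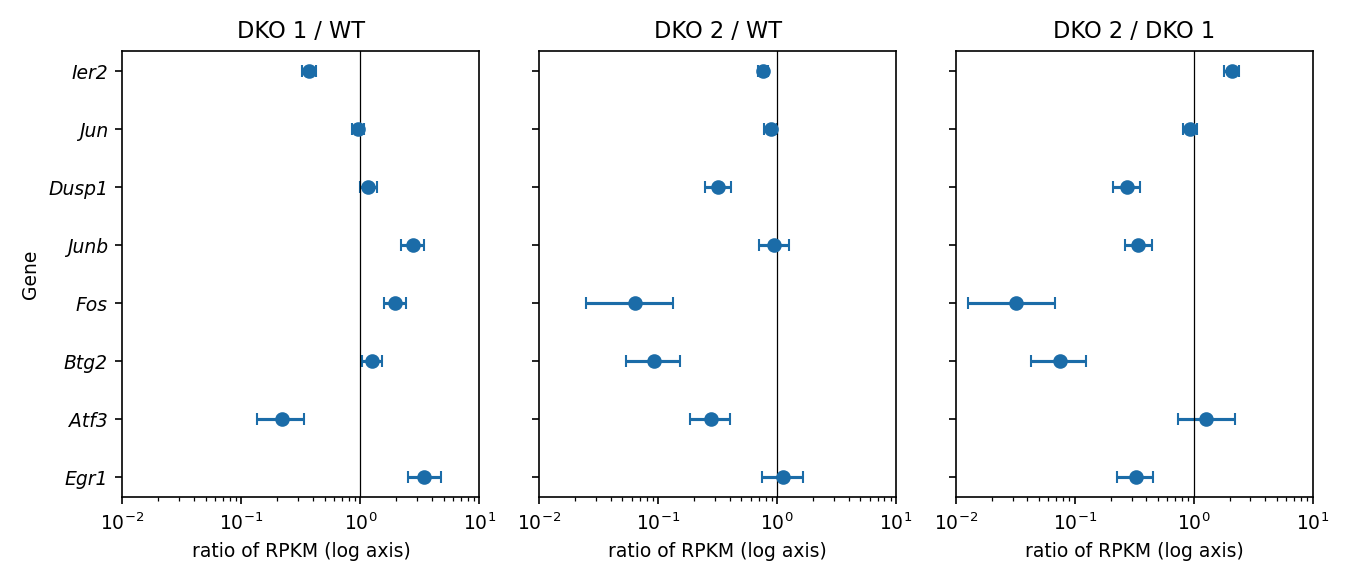
Ratios of RPKM between libraries for 8 members (log axis), with 95% exact binomial intervals that cover counting error only; the vertical line marks a ratio of 1. Fos, Btg2 and Dusp1 lie left of the line in DKO 2 over WT and in DKO 2 over DKO 1, and Atf3 lies left of it in both DKO libraries against WT.

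Against WT, 0 of the 6 tested members passed limma at an adjusted p under 0.05, where 0.0968% of all tested transcripts (2 of 2066) did, 1 higher and 1 lower (0.0484% each). None had an unadjusted p under 0.05 either, and the lowest was that of Ier2 (limma unadjusted p = 0.273, adjusted p = 0.999). The fit takes the spread of the lone WT library to equal that of the 2 DKO libraries, and an exact permutation test of 1 library against 2 could not go below p = 0.333. By size, 0 members lay at least 2-fold above WT, or at least 2-fold below it, in both DKO libraries with these closer to each other than to WT, against 3.19% of tested transcripts higher and 1.50% lower. The median log2 difference of the 6 was −0.37, and that of all tested transcripts was −0.0095. The sign depended on the library, the median being 0.20 for DKO 1 and −0.73 for DKO 2.

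For 5 of 6 tested members the DKO libraries lay further from each other than their mean lay from WT, and Jun was the exception. The share was 60.5% over all tested transcripts, and which members met this depended on the scaling: Ier2 left it with equal medians, quantile normalization or rescaling to the same total, and Jun joined it with that rescaling or without haemoglobin genes. Fos, Btg2, Dusp1 and Junb were at least 2-fold lower in DKO 2 than in DKO 1 on the log2(RPKM + 1) scale, 4 of 6 against 12.8% of tested transcripts. With a pseudocount of 5 RPKM it was 0 of 6 (4.55% of tested transcripts), and without haemoglobin genes Junb fell short at −0.95, leaving 3 of 6 (10.6%). Among the 1094 transcripts within the range of the tested members' mean levels, the share was 13.4%. The same 4 were highest in DKO 1 and lowest in DKO 2, where 16.9% of tested transcripts were. Fos, Btg2 and Dusp1 were also at least 2-fold below WT in DKO 2 on that scale, against 11.8% of tested transcripts, and no member was 2-fold above WT there (15.1%). In DKO 1, Junb was at least 2-fold above WT (8.03% of tested transcripts) and Ier2 at least 2-fold below it (5.52%). No tested member was above WT in both DKO libraries (32.1% of tested transcripts), and Ier2 and Jun were below it in both (31.0%). With 1 library each, the difference between DKO 1 and DKO 2 has no replicate check. Since Fos and Btg2 passed the filter through the libraries in which they were high, these counts describe the 6 tested genes and not all 10.

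**Figure D3:**
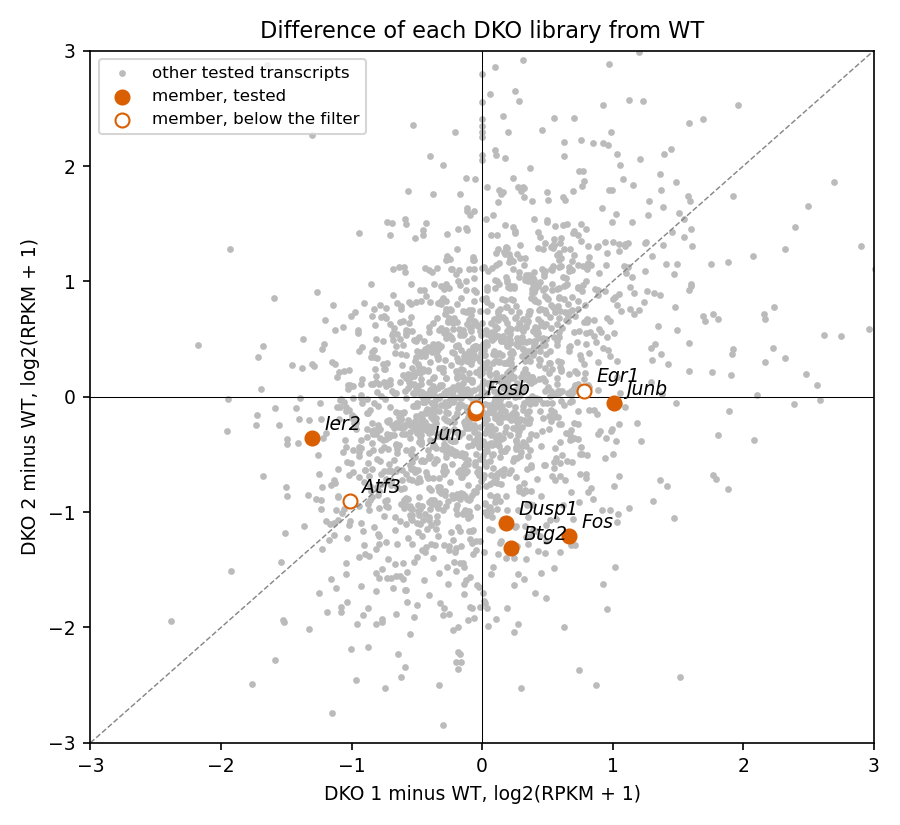
Difference of DKO 1 (horizontal) and DKO 2 (vertical) from WT on the log2(RPKM + 1) scale for tested transcripts (grey) and the 9 members above 0 (orange, open where the mean was below 1 RPKM); the dashed line marks equal differences, and 42 tested transcripts lie beyond the axes. Fos, Btg2 and Dusp1 sit at the lower right of the centre, at −1.21, −1.31 and −1.10 on the vertical axis.

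A ratio taken within a library does not depend on how libraries were scaled. Relative to Jun, Fos stood at 0.347 in WT, 0.713 in DKO 1 and 0.0248 in DKO 2. The Btg2 to Jun ratio was 0.435, 0.569 and 0.0458 in the same order, and the Dusp1 to Jun ratio was 0.815, 0.999 and 0.295. Each of these genes was thus lowest relative to Jun in DKO 2. Junb gave 0.314, 0.904 and 0.331 and Egr1 gave 0.0934, 0.338 and 0.118, so both were highest relative to Jun in DKO 1. By level, Ier2 ranked first and Jun second among the 9 members in every library, while Fos ranked 6 in WT, 5 in DKO 1 and 8 in DKO 2. Fosb was last in each.

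Other genes of the response, from lists of related genes, did not follow 1 pattern. Of 22 other immediate early transcription factors, 17 had a row, 7 of these were listed at 0 and 5 were tested. None passed limma in either direction, and 4 were above WT in both DKO libraries, as were 32.1% of tested transcripts. Cebpd, a leucine zipper factor of inflammatory and glucocorticoid responses, stood at 2.07 RPKM for WT, 36.8 for DKO 1 and 4.17 for DKO 2, with DKO 1 far above the others as for Junb and Egr1. Klf2, a factor of endothelial cells and lymphocytes, had 1.74, 2.35 and 0.918 RPKM, in the order seen for Fos. Maff, a small Maf protein, had 1.32, 2.52 and 2.89 RPKM, and Klf6 had 1.32, 2.15 and 2.06. The median log2 difference of these 5 was 0.67.

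Of 25 other early effectors and feedback regulators, 11 were tested and 0 passed in either direction. In both DKO libraries 2 were above and 5 below WT, against 32.1% and 31.0% of tested transcripts. Mcl1, which protects cells from apoptosis, stood at 20.3 RPKM for WT, 13.4 for DKO 1 and 10.5 for DKO 2. Zfp36l1, which speeds the decay of AU-rich messengers, had 18.4, 27.2 and 17.6 RPKM. Btg1, the paralog of Btg2, had 9.83, 9.30 and 13.6 RPKM, so it was not low in DKO 2 as Btg2 was. Nfkbia, the inhibitor of NF-kappaB and one of its early targets, had 5.96, 6.90 and 16.1 RPKM. The median log2 difference of the 11 was −0.14. Of the other dual-specificity phosphatases 1 was tested, Dusp2, with 0.990, 0.645 and 2.87 RPKM (limma adjusted p = 0.999), the opposite order to Dusp1.

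**Figure D4:**
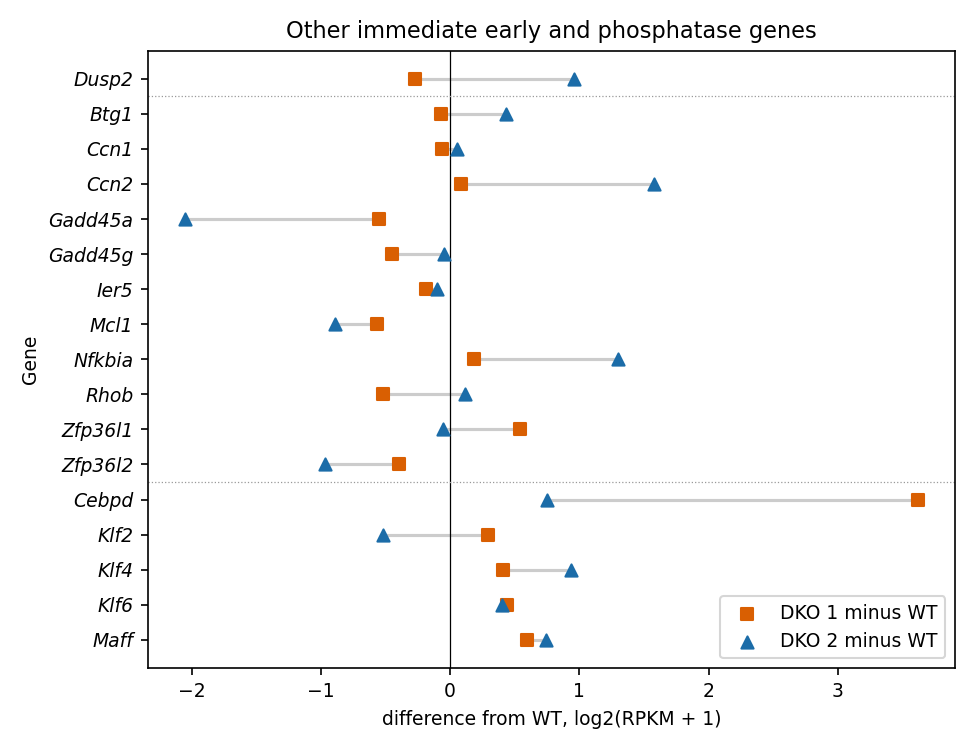
Differences of DKO 1 (squares) and DKO 2 (triangles) from WT on the log2(RPKM + 1) scale for the 17 tested genes of the lists of other immediate early factors, effectors and phosphatases, separated by dotted lines. Points of the same gene often lie on either side of 0, and Cebpd in DKO 1 lies furthest to the right.

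Of 37 kinases and factors upstream of immediate early genes, 12 were tested with 13 transcripts, and 0 passed in either direction. Mapk3, which encodes the kinase ERK1, stood at 11.2 RPKM for WT, 11.5 for DKO 1 and 22.6 for DKO 2. Mapkapk2, a kinase downstream of p38, had 7.86, 10.4 and 17.4 RPKM, so both were highest in DKO 2, where Fos was lowest. Map2k5 had 4.84, 10.9 and 5.57 RPKM, and the small GTPase gene Nras had 8.71, 7.67 and 11.0. The median log2 difference of the 13 was 0.019. Creb1 and Atf2, both factors that bind the CRE, were listed at 0 in every library. RefSeq lists 3 transcripts of Creb1 and 9 of Atf2, and as for Jund no level can be read for them. Atf1, also of the ATF and CREB family, was tested and had 8.56, 3.44 and 4.24 RPKM.

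Among 25 genes known as targets of AP-1 or serum response factor, 11 were tested and 0 passed in either direction, with a median log2 difference of −0.085. The actin genes Actb (489.5, 521 and 783 RPKM) and Actg1 (382, 378 and 473 RPKM) were highest in DKO 2. Vim, of the intermediate filament vimentin, had 102, 95.2 and 90.5 RPKM, and Tpm4, a tropomyosin, had 63.3, 60.0 and 47.2. Heat shock genes, which also respond to stress, gave 8 tested transcripts with a median of −0.44, and 0 passed. In both DKO libraries 5 were below and 2 above WT, against 31.0% and 32.1% of tested transcripts. Hsp90aa1, a chaperone gene, had 1178, 790.3 and 343 RPKM. Hspe1 had 5527, 3986 and 4174 RPKM, Hsp90ab1 had 161, 90.0 and 129, and Hspd1 had 74.2, 60.9 and 93.1.

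Markers of other cell types and organs moved between the same libraries. Of 10 macrophage markers 6 were tested, and all 6 were highest in DKO 1, as were 28.0% of tested transcripts. Their list summed to 79.7 RPKM in WT and to 97.1 and 359 in the DKO libraries, with the larger sum in DKO 1. Tyrobp, a receptor adaptor, had 24.9, 219 and 52.3 RPKM, Fcer1g had 42.5, 89.1 and 35.9, and Cd68 was listed at 0. Against WT, 4 of the 6 were higher in both DKO libraries (32.1% of tested transcripts). Fcer1g and C1qc (9.43, 25.1 and 0.111 RPKM) were below WT in DKO 2. Under the filter, Csf1r (0.376, 0.690 and 0.136 RPKM) was highest in DKO 1 and Adgre1 (0.0949, 0.522 and 1.28) in DKO 2. Junb, Egr1, Fos and Cebpd were also highest in DKO 1, and the part of macrophages in their levels was not tested. All 6 tested erythroid markers of 10 were highest in DKO 2, as were 41.0% of tested transcripts. That list summed to 20201 RPKM in WT and to 28714 and 102773 in the DKO libraries, with Hbb-y at 18354, 25259 and 91331, and Alas2, Hba-a1 and Hbb-bt listed at 0. Liver markers summed to 7.55 RPKM in WT and to 11.4 and 183 in the DKO libraries, with 5 of 7 tested and Serpina1a listed at 0. Heart markers summed to 19.4 RPKM in WT and to 11.4 and 61.0 in the DKO libraries, with 2 of 8 tested and Myh6, Nppa and Tnnt2 listed at 0. Most or all of the heart sum was Myl4, at 19.1, 11.4 and 56.1 RPKM. Myl2 had 0, 0 and 4.90 RPKM, and Myl3, below the filter, had 0.320, 0 and 0. The erythroid, liver and heart sums were thus highest in the library in which Fos, Btg2 and Dusp1 were lowest. The part of these tissues in the levels of Fos, Btg2 and Dusp1 was not tested.

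Neutrophil markers, of which 2 of 8 were tested, summed to 3.07 RPKM in WT and to 77.1 and 117 in the DKO libraries, and Elane, Ngp and S100a9 were listed at 0. Epithelial markers summed to 409 RPKM in WT and to 29.1 and 37.0 in the DKO libraries, most of the WT sum being Sftpc, with 6 of 9 tested. Without Sftpc the sum stood at 39.7 RPKM for WT, 21.5 for DKO 1 and 37.0 for DKO 2. Krt19 was higher in both DKO libraries than in WT, while 4 of the 6 tested markers were lower in both (31.0% of tested transcripts). Atf3 and Ier2 were below WT in both, and the part of the epithelium in this was not tested. Endothelial sums were 10.5, 11.5 and 14.5 RPKM in WT, DKO 1 and DKO 2. Mesenchymal sums were 65.8, 97.0 and 65.1 in the same order and smooth muscle sums 26.3, 30.1 and 26.0. By sum, these last 2 lists were thus highest in DKO 1, as the macrophage list was. Of 4 tested mesenchymal markers 3 were highest in DKO 1, as were 2 of 4 smooth muscle markers and 28.0% of tested transcripts. Tbx5 (1.61, 2.51 and 3.61 RPKM) and Acta2 (4.45, 7.28 and 11.0) were highest in DKO 2, and Tagln (16.5, 14.8 and 8.77) in WT.

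**Figure D5:**
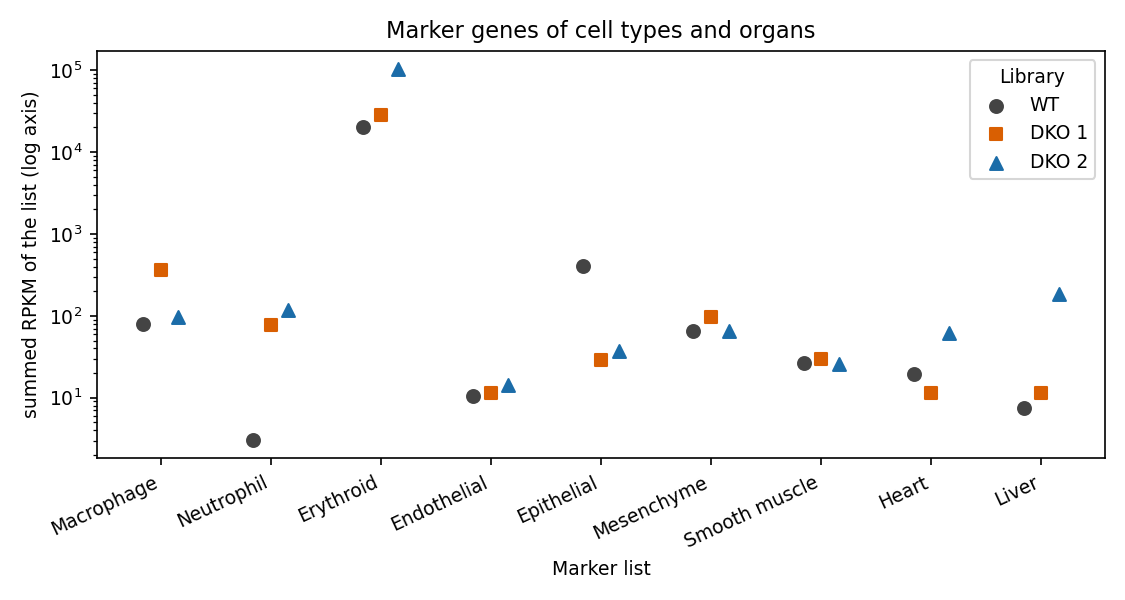
Summed RPKM (log axis) of 9 lists of marker genes in each library, with 1 point per library. The macrophage sum is highest in DKO 1, at 359 RPKM, and the erythroid, liver and heart sums are highest in DKO 2.

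The genes whose pair of differences lay nearest to the median pair of the 6 tested members (0.20 in DKO 1 and −0.73 in DKO 2) were Zfp873, Nedd4, Atp6v1a, Rb1cc1 and Adam10. Their distances from that pair were 0.0629 to 0.0897 on the log2 scale, over 3 libraries. Nedd4, for example, stood at 33.0 RPKM for WT, 36.5 for DKO 1 and 19.1 for DKO 2. The measure rests on 3 libraries.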

How the data were processed

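RNA of whole lung was measured in 1 WT and 2 DKO libraries, prepared by the SMARTer Ultra Low Input protocol, per the labels. The authors deposited RPKM values per RefSeq transcript, 1 column per library. Per the submitters' processing notes, cutadapt, TopHat2, HTSeq and edgeR were used with build mm10, and for versions, order, transcript lengths, scaling total and strand setting the sources used here give nothing. RefSeq (GRCm38.p6) named 16151 rows and GENCODE M21 a further 77, leaving 155 unnamed.

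Values were analysed as log2(RPKM + 1) for the 2066 transcripts that averaged 1 RPKM or more. They were tested with limma 3.58.1 under R 4.3.3 (two-sided, trended moderation, p adjusted by Benjamini-Hochberg over all tested transcripts, threshold 0.05), with 1 residual and 11.2 prior degrees of freedom. It was tested on simulated data. Approximate reads are RPKM times GENCODE transcript length over the worth of 1 read, and gave exact binomial intervals at 95%. Of values of 1 to 100 reads, 44.1% to 46.2% lay within 0.05 of a whole read, where 10% would by chance. The intervals, from reads rounded to whole numbers and 1 library on each side, are therefore approximate. No p-value was taken from reads.

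The members, gene lists and tests were chosen with earlier results of these data known. From each related list the 4 tested genes of highest mean RPKM were named; marker lists are given by their sums, with up to 2 genes named by the same rule. Markers and factors listed at 0, Krt18, Krt19, Sox2, Sox9, Atf1, Ddx3y, Lin28b and Gapdh were named after their values were seen. The same holds for Adgre1, Csf1r, C1qc, Tbx5 and Myl3. Alternatives were other pseudocounts, filters, scalings and moderations, and leaving out each DKO library.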

Additional observations from a re-analysis of the deposited data

How the results depend on the processing

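None of the 9 members above 0 passed limma in any alternative fit it entered (Atf3, Egr1 and Fosb entered only that without a filter), and the lowest adjusted p over these fits was 0.922. The number of transcripts called over the whole table was 2 and depended on the fit. It was 13 with a pseudocount of 0.1, 1 with a pseudocount of 5, 10 with a filter at 5 RPKM, 16 with libraries scaled to equal medians and 15 without haemoglobin genes. It was 0 without a filter (260 at an unadjusted p under 0.05), with quantile normalization (45) and with rescaling each library to the same total, as in TPM (38). Rescaling moved the median log2 difference of all tested transcripts from −0.0095 to −0.22, and removal of haemoglobin genes moved it to 0.11. The cause of these shifts in calls was not tested. The size rule gave 97 transcripts, 66 higher and 31 lower. It gave 166 with a pseudocount of 0.1, 34 (28 higher and 6 lower) with a pseudocount of 5 and 50 with a filter at 5 RPKM, where fewer transcripts enter. The split was 71 higher and 67 lower with rescaling to the same total. Leaving out a DKO library, which leaves 1 library against 1 and no test, gave 280 to 555.

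The median log2 difference of the tested members ran from −0.83 (filter at 5 RPKM, Ier2 alone) to −0.11 (pseudocount of 5) over the fits with both DKO libraries, and from −0.73 to 0.20 when a DKO library was left out. Leaving out a DKO library turned the direction of 4 members. Their difference from WT ran from −1.21 to 0.66 for Fos, from −1.31 to 0.22 for Btg2 and from −1.10 to 0.18 for Dusp1, the positive value being the one without DKO replicate 2, and from −0.057 (without DKO replicate 1) to 1.01 for Junb. Without haemoglobin genes Jun turned to 0.020 against WT and to 0.10 between the DKO libraries. Of the 6 tested members, 4 were at least 2-fold lower in DKO 2 than in DKO 1, but 0 with a pseudocount of 5 and 3 without haemoglobin genes. The other differences of members kept their direction under every alternative they entered. No paired analysis was possible because the WT label carries no replicate number and only 1 WT library exists. Depth limits Fosb, with 1 read in DKO 2, and Fos there, with 7.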
